A study of Mus musculus with 2 samples.

Results

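Small RNA reads annotated to short interspersed elements (SINEs) were examined in fetal mouse liver. They were taken as every distinct read sequence that the authors' table assigns to the repeat track (class rmsk) with SINE as its repeat class, which gave 43061 of 2344366 distinct sequences. One library came from wild type embryos and one from embryos carrying Ago2ADH, a catalytically inactive Argonaute 2. Both were of strain B6/129 at stage E18.5, shortly before birth, and both were made from a gel fraction of 19 to 30 nt of total RNA from liver. The labels do not say how many livers were used or how the allele was bred. SINE reads numbered 39894 in wild type, or 5249 RPM (reads scaled to a library of 1000000 reads of all kinds), and 36085 in Ago2ADH, or 5121 RPM. With 1 library per genotype no difference has a replicate check, and no p-value is given. Pairs of counts or shares below give wild type first and Ago2ADH second unless stated, and ratios are those of Ago2ADH over wild type on a log2 scale.

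SINEs are short retrotransposons that RNA polymerase III transcribes from an internal promoter and that move with the help of the reverse transcriptase of LINE elements. The rodent families have different origins: B1 elements (listed as Alu) descend from 7SL RNA, B2 and ID elements descend from tRNAs, B4 elements join ID and B1 sequence, and MIR elements are old tRNA-derived copies shared by mammals. Argonaute 2 is the mammalian Argonaute that cuts RNA paired to its small RNA guide, and Dicer and the Piwi proteins are other known sources of small RNA from repeats.

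The wild type library held 7599870 reads and the Ago2ADH library 7046197, so that 3 reads correspond to 0.395 and 0.426 RPM. Reads of the miRNA class made up 37.0% and 39.9% of them, which enters every value scaled to all reads. Fragments of 10 hepatocyte marker mRNAs were present at 100 or more reads each and summed to 94280 and 91253 reads. Fragments of 10 erythroid markers summed to 1844 RPM in wild type and 1176 RPM in Ago2ADH. Their median log2 ratio was -0.59 over the 7 with enough reads. Of these 7, 1 (Spna1, erythroid spectrin) was lower by the size rule given below, beside 0.641% of all annotation names with 100 or more reads. Fragments of 6 myeloid markers had 487 and 441 reads, with a median log2 ratio of -0.004 over the 4 with enough reads. The 10 germ cell and Piwi pathway mRNAs had 35 and 37 reads in all, with Dazl and Asz1 at 0. The part of the erythroid difference in any SINE value was not tested.

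The SINE reads were uneven, and the sequences of the most abundant ones are shown because they overlap into a single RNA. Starting from the most abundant SINE read of 26 nt or longer, overlaps of 16 letters among all reads extended to 100 nt in both directions and then stopped. From background knowledge the result resembles 4.5SI RNA, a rodent RNA polymerase III transcript related to B2, but no file used here names it. Below are this assembled RNA and 5 of the SINE reads inside it, written as DNA, with capitals on 2 stretches of 11 letters that are complementary to each other, at positions 2 to 12 and 82 to 92.
assembled RNA: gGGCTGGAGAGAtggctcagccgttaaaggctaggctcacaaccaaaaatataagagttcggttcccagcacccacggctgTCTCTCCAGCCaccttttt
5′ read of 17 nt (B3A): gGGCTGGAGAGAtggct
5′ read of 18 nt (B3A): gGGCTGGAGAGAtggctc
5′ read of 30 nt (B4): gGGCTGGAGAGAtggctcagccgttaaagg
3′ read of 30 nt (B3): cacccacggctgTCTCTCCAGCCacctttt
read of 15 nt from position 70 (RSINE1): cacccacggctgTCT

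Reads lying wholly in the assembled RNA numbered 10292 and 10453 over all annotations (832 distinct sequences). Their log2 ratio was 0.13 (exact conditional binomial 95% interval 0.09 to 0.17). Of these, 541 distinct sequences were SINE members, with 8529 and 8596 reads, or 21.4% and 23.8% of all SINE reads. Reads whose letters lie in the assembled RNA were listed under 5 SINE names. B3A had 4835 and 4641 of these reads, B4A 1357 and 1026, B3 1197 and 1444, B4 1095 and 1372, and RSINE1 45 and 113. A further 1252 and 1208 such reads were listed as the LTR element ORR1A2-int. The opposite strand of the assembled RNA had 7 and 14 reads.

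The 5′ end of the assembled RNA held most of its reads. Those starting at position 1 numbered 4730 and 4945, and the 17 and 18 nt reads printed above held most of them: 1721 and 1811 reads of the first, 1795 and 1467 reads of the second. Each of these sequences matches the genome at very many places (30931 for the first and 28444 for the second), so the position count alone cannot place them. All reads of 23 nt or longer that begin with the first 20 letters of the RNA were also compared with it. Of these, 284 and 507 continued with its letters to their end, 36 and 51 differed at positions 21 to 23, and 7 and 10 differed later. All reads, these included, took part in the assembly, so the counts are not independent of it. That comparison does not cover the reads of 17 and 18 nt, which could come from other copies.

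Longer pieces of the 5′ end were more frequent in the Ago2ADH library. A size rule was used for such statements: a count of 100 or more over both libraries, a ratio of 2 or more or 0.5 or less, and a 95% interval of the log2 ratio that leaves out 0. Reads starting at positions 1 to 7 with 27 nt or more numbered 254 and 508 and were higher by this rule, with a log2 ratio of 1.11 (0.89 to 1.33). Those of 19 to 26 nt had a log2 ratio of 0.44 and those of 15 to 18 nt 0.02, and neither met the rule. From position 1 alone, reads of 19 nt numbered 279 and 428, reads of 20 nt 168 and 275, and reads of 29 nt 72 and 127. Those of 30 nt, the 5′ read printed above, supplied 101 and 249 of the reads of 27 nt or more. Other lengths differed little or went the other way: 20 and 21 reads at 24 nt, 48 and 43 at 25 nt, and 9 and 7 at 28 nt. The position windows were chosen after the read starts had been seen.

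The 3′ end carried a second stack, which starts at position 70 and mostly runs to the terminal run of T. SINE reads starting at position 70 numbered 459 and 861 and were higher by the rule (1.02, 0.85 to 1.18), and 73.3% of them ended at position 99 or 100. The 3′ read of 30 nt printed above supplied 333 and 635 of them. Over all annotations the same start had 696 and 1100 reads and a log2 ratio of 0.77, which did not meet the rule. Reads ending at positions 93 to 100 with 27 nt or more had 786 and 1176 reads (0.69), and those of 19 to 26 nt 747 and 606 (-0.19). Among the longer ones, the B3 read of 28 nt from position 72 went the other way, with 91 and 60 reads (-0.49, -0.99 to -0.01). Between the 2 ends the values lay on both sides of 0. SINE reads starting at positions 45 to 57 numbered 1657 and 1039, at -0.56 (-0.68 to -0.45). Over all annotations, reads starting at position 22 or 23 numbered 148 and 204 (0.57, 0.26 to 0.89), and reads lying within positions 21 to 47 numbered 214 and 293 (0.56, 0.30 to 0.82). Reads of 27 nt or more in neither end window numbered 168 and 222 (0.51, 0.22 to 0.81). None of these 4 sets met the size rule.

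**Figure D1:**
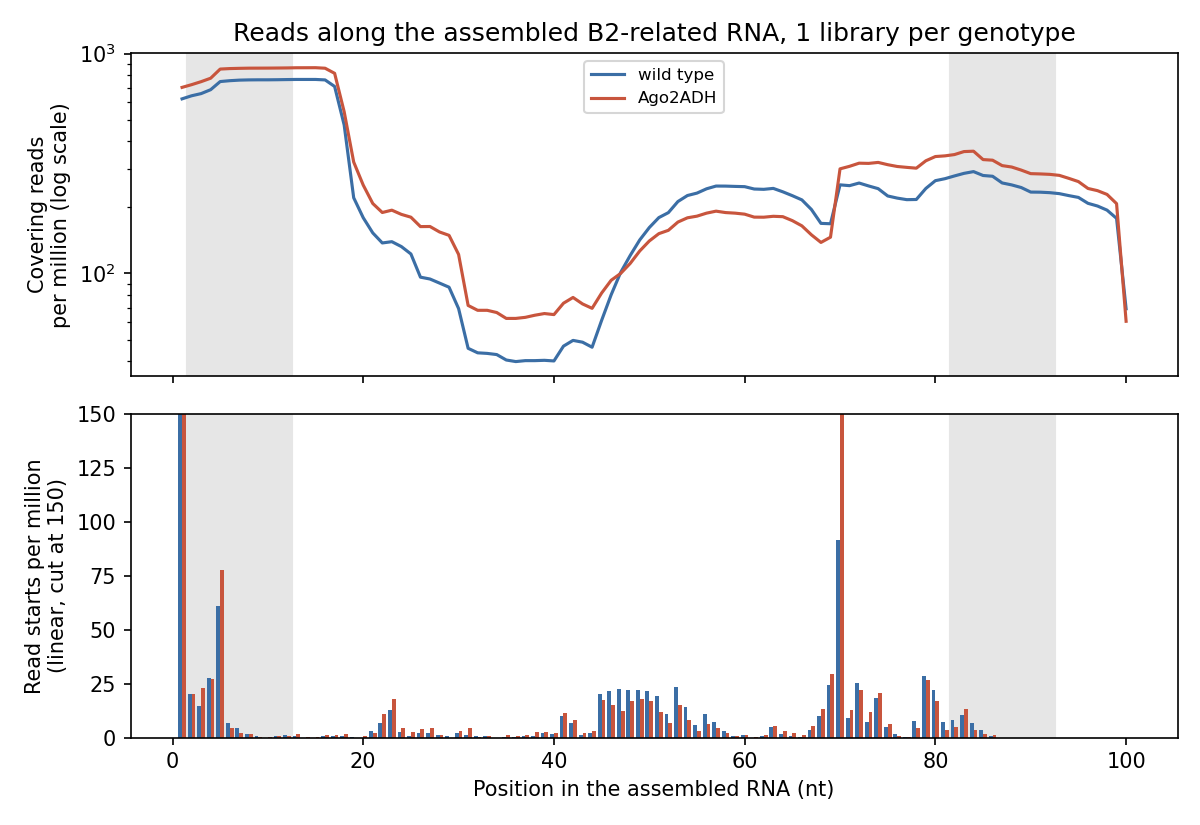
Reads of all annotations that lie in the 100 nt assembled RNA, by position from its 5′ end (x axis). The top panel gives covering reads in RPM on a log scale and the bottom panel read starts in RPM on a linear axis that ends at 150; starts at position 1 exceed it in both libraries (622 RPM in wild type and 702 RPM in Ago2ADH), and starts at position 70 exceed it in Ago2ADH (156 RPM). Grey bands mark the 2 complementary stretches. The Ago2ADH line is above the wild type line at the 5′ end and from position 70 to 99, and below it around position 57, where coverage was 250 RPM in wild type and 192 RPM in Ago2ADH.

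The assembled RNA contains the letters of a listed miRNA, mmu-miR-690, at positions 26 to 47. Its mature sequence from RefSeq (GRCm38.p6), with the seed (bases 2 to 8) in capitals, is shown because the same reads could be filed under either name.
mmu-miR-690: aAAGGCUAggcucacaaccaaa
Its hairpin lies at chr16:28599935-28600043 on the minus strand (GRCm38), inside a same-strand intron of Fgf12 in GENCODE M21. Compared with the hairpin over positions 1 to 47 of the assembled RNA, counted from its 5′ end, the differences from RNA to hairpin were G1C, G2A and C22T. Reads inside the assembled RNA that were listed as mmu-mir-690 numbered 411 and 542, with a log2 ratio of 0.51 (0.32 to 0.70). Only 14 and 24 reads began at position 26 and stayed within the mature letters, and none of these was a SINE member.

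A second group of members consisted of short reads that also lie inside longer and more abundant reads of other annotations. A member was counted here when such longer reads outnumbered both its own count and the longer SINE reads containing it. Outside the assembled RNA there were 4461 such sequences with 6818 and 5424 reads, or 17.1% and 15.03% of SINE reads. Containment was most frequent among the shortest reads: it applied to 30.5% and 30.6% of the SINE reads of 15 to 18 nt and to 0.375% and 0.131% of those of 27 to 31 nt. The longer reads behind 5 of the most abundant members are given here, with the member in capitals, because they show which RNAs share these letters.
around RSINE1: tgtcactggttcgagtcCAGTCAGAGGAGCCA
around B3A: tcCCCGGCACCTCCACCA
around B4A: gcgccGCTGGTGTAGTGGTAtcatgca
around ID_B1: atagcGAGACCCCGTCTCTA
around B4A: tagcGAGACCCCGTCTCTTT

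The first 2 of these longer reads end in CCA and match the genome nowhere. Mature tRNAs carry a CCA end that is added after transcription and is not encoded in mammalian tRNA genes. The RSINE1 member of 15 nt had 127 and 131 reads, while longer reads of other annotations holding it numbered 76927. The B3A member of 16 nt had 38 and 68 reads against 2533 longer ones (0.95, 0.36 to 1.56, short of the size rule). Over all 4485 contained members, those of the assembled RNA included, reads numbered 6898 and 5561 (-0.20, -0.25 to -0.15). The 97 of them that end in CCA had 319 and 400 reads (0.44, 0.22 to 0.65), also short of the size rule. The same ending was found in 661 SINE members not counted as contained, with 878 and 752 reads (-0.11, -0.26 to 0.03). Whether members with this ending come from tRNA was not tested. The most abundant read of the B1 family, listed as B1F2, had 176 and 89 reads and was not counted as contained, since the 206 longer reads of other annotations holding it were fewer than its own. The B4A member gctggtgtagtggta had 105 and 66 reads against 154226, the most frequent of which the table lists under the mRNA of 0610011F06Rik. That longer read has 2 genome matches, and whether it comes from this mRNA or from another RNA was not tested.

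The last pair of longer reads shares its letters with 7SL RNA, the relative of B1. All but the final letter of each is found in the transcripts Rn7s1 and Rn7s2 of GENCODE, the mouse 7SL genes. The ID_B1 member of 15 nt had 346 and 172 reads and stood short of the size rule, at -0.90 (-1.17 to -0.63). The B4A member of 16 nt had 134 and 42 reads and fell in the Ago2ADH library, with a log2 ratio of -1.56 (-2.10 to -1.05). The most abundant read of the MIR family, of MIRc (42 and 14 reads), was contained in 168 longer reads of other annotations, and the most frequent of these is found in a small nucleolar RNA transcript of GENCODE. That of the ID family, of ID4 (45 and 36 reads), was held by 81 longer reads of other annotations, no more than its own count, and so was not counted as contained. One B3 member of 15 nt (40 and 50 reads) lies inside a sequence that the table lists as synthetic, and it was kept because the annotation names it a SINE.

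One B1 name carried a tRNA sequence with a changed first letter. All 12 SINE sequences of 19 nt or longer with 1 genome match that lie in Gm43846, an intronic transcript at chr3:104957442-104958373 on the minus strand (GRCm38), were listed as B1_Mur3. Their letters after the first are found in reads of the tRNA class, and in each case a tRNA read exists that starts with G in place of A. The most abundant pair is shown with that letter in capitals.
B1_Mur3 read: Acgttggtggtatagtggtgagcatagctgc
tRNA-Gly-GGA read: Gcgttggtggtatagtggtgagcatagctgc
The 12 B1_Mur3 reads numbered 108 and 19 and fell by the size rule, at -2.40 (-3.18 to -1.69). The 12 tRNA reads that differ only in the first letter numbered 19962 and 18388, at -0.01 (-0.04 to 0.02). The group was singled out after its values had been seen.

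In total, SINE reads were 0.525% (exact Clopper-Pearson 95% interval 0.520 to 0.530) of all reads in wild type and 0.512% (0.507 to 0.517) in Ago2ADH. The log2 ratio was -0.04 (-0.06 to -0.02), which did not meet the size rule and lay at 0.03 when scaled to reads outside the miRNA class and at -0.15 when scaled to miRNA reads. LINE reads, the autonomous elements whose proteins move SINEs, had 64891 and 64983 reads (0.11, 0.10 to 0.13), and LTR reads 36593 and 32690 (-0.05, -0.07 to -0.03). Most SINE members were rare: 83.1% of the distinct sequences were seen once over both libraries, and 1609 (3.74%) were seen in both. The 2 most abundant sequences made up 8.94% of all SINE reads and the 100 most abundant 23.4%.

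Without the reads of the assembled RNA and the contained reads, 38059 distinct members remained, with 24547 and 22065 reads. Their log2 ratio was -0.04 (-0.07 to -0.02). The assembled RNA was at 0.12 (0.08 to 0.16) and the contained members at -0.22 (-0.27 to -0.17). The 3 intervals did not overlap, and none of the 3 groups met the size rule.

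No SINE family met the size rule. B2, the tRNA-derived family, had 13499 and 12914 reads and a log2 ratio of 0.05 (0.01 to 0.08), which turned to -0.07 when scaled to miRNA reads and to -0.02 without the assembled RNA. B4 had 13394 and 11998 reads and a log2 ratio of -0.05 (-0.09 to -0.01), which turned to 0.02 when scaled to reads outside the miRNA class. B1 (Alu) had 9245 and 7982 reads and a log2 ratio of -0.10 (-0.15 to -0.06). MIR had 2597 and 2263 reads (-0.09, -0.17 to -0.01), and ID, the family named for its identifier sequence, 1136 and 905 reads (-0.22, -0.35 to -0.09). All these ratios are smaller than the 2-fold limit, and what separates libraries of 1 genotype is unknown.

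By repeat name the picture was equally flat. Of 39 SINE names, 32 had 100 or more reads, and 0 were called higher or lower (over all annotation names with as many reads, 0.986% were called higher and 0.641% lower). Their median log2 ratio was -0.09, beside 0.01 over all 4058 names. Ratios ran from -0.46 (MIRm, 162 and 109 reads) to 0.28 (MIR3, 166 and 187 reads). The interval, which covers counting error only, lay wholly above 0 for 2 names, wholly below 0 for 10, and held 0 for 20. The same tally is not given here for all annotation names, so these numbers cannot be called particular to SINE names.

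Both names whose interval lay above 0, B3 and B4, are among those that share the assembled RNA. B3 had 3903 and 3994 reads (0.14), and B4, the fusion element, 2815 and 2943 (0.17). Without the reads of the assembled RNA, B3 went to 0.02 (-0.06 to 0.10) and B4 to -0.02 (-0.12 to 0.08). B3A, the name with most reads, had 6717 and 6414 (0.04). B4A had 4783 and 3829 (-0.21), RSINE1 2928 and 2787 (0.04), and ID_B1 2868 and 2439 (-0.12). Read counts of names were not corrected for the number or length of their copies, so levels of different names do not measure transcription per copy.

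Other names with many reads did not meet the size rule either. B2_Mm2 had 1838 and 1576 reads (-0.11), and B1_Mus1, a recent B1 name, 1471 and 1106 (-0.30). PB1D10 had 1142 and 1022 (-0.05) and B1F 908 and 802 (-0.07). The MIR elements MIR and MIRb had 870 and 807 reads (0.00) and 893 and 729 reads (-0.18).

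**Figure D2:**
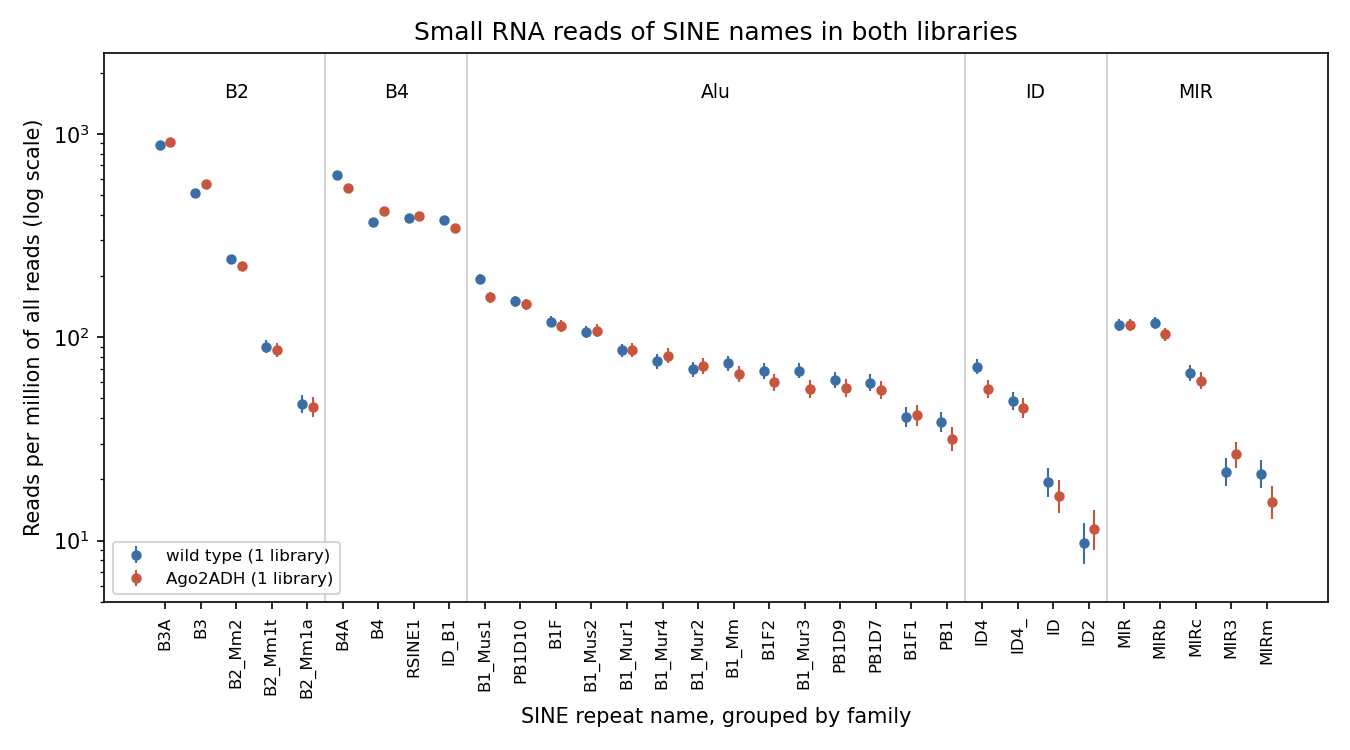
RPM (log axis) for the 32 SINE names with 100 or more reads, grouped by family, in the wild type and the Ago2ADH library. Points are 1 library each, and bars are exact Poisson 95% intervals that cover counting error only. B3A has the highest level, at 884 RPM in wild type and 910 RPM in Ago2ADH, and both points of each name lie close together.

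Single SINE reads were compared one by one where they had 100 or more counts. There were 25, of which 16 lie in the assembled RNA. By the size rule 3 rose in Ago2ADH, or 12% (over all distinct reads of the table with as many counts, 7.39% were higher), and 1 fell, or 4% (over all such reads, 11.3% were lower). All 3 that rose belong to the assembled RNA. Their counts are also part of the sets at its ends that were higher by the rule, so these are not separate results. They were the 3′ read of 30 nt (333 and 635 reads, 1.04, 0.85 to 1.24), the 5′ read of 30 nt (101 and 249, 1.41, 1.07 to 1.76) and the read of 15 nt from position 70 (45 and 113, 1.44, 0.93 to 1.97). The one that fell was the B4A member that overlaps 7SL letters, given above. Just inside the limit stood the 3′ read of 30 nt, and just outside it a B3A read that lies in a longer read ending in CCA (cccggcacctccacca, 38 and 68 reads, 0.95) and the 5′ read of 29 nt (72 and 127, 0.93).

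SINE reads spread over all lengths, and the peaks among them lay in the assembled RNA. Reads of 15 to 18 nt made up 49.4% (48.9 to 49.8) of SINE reads in wild type and 45.01% (44.5 to 45.5) in Ago2ADH, although the gel fraction began at 19 nt. Reads of 19 to 23 nt made up 29.5% and 28.5%, those of 24 to 26 nt 10.8% and 11.4%, and those of 27 to 31 nt 10.04% (9.75 to 10.3) and 14.8% (14.4 to 15.1). Outside the assembled RNA the number of reads declined from 15 nt (4557 and 3966 reads) to 22 nt (1706 and 1564) and 30 nt (467 and 583). There was a small step up at 18 nt in both libraries. In Ago2ADH the count also rose from 2548 at 16 nt to 2690 at 17 nt, where wild type fell from 3705 to 3328. Inside it the counts peaked at 17 nt (1968 and 1955) and 18 nt (2103 and 1689) and again at 30 nt (514 and 1016).

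**Figure D3:**
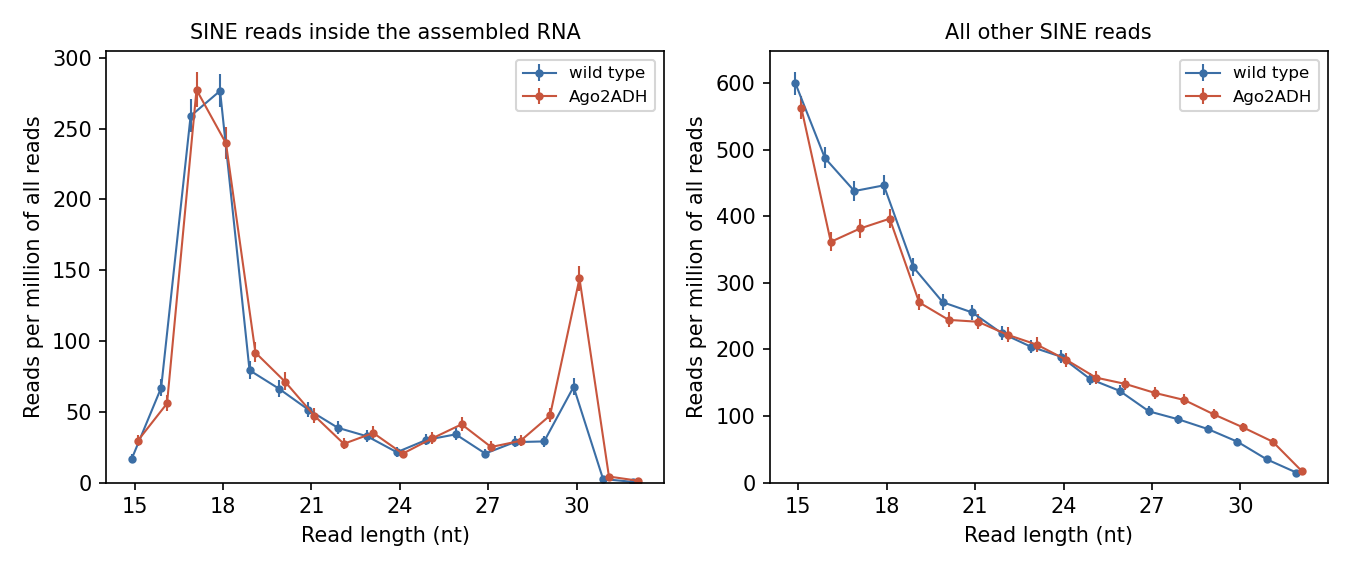
RPM by read length for SINE reads inside the assembled RNA (left) and all other SINE reads (right), in 1 library per genotype, with exact Poisson 95% intervals. The left panel shows peaks at 17 to 18 nt and at 30 nt, where Ago2ADH had 144 RPM and wild type 67.6 RPM; in the right panel levels decline with length in both libraries apart from short steps.

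SINE reads of 27 to 31 nt were relatively more frequent in the Ago2ADH library, short of the size rule. They numbered 4005 and 5326, with a log2 ratio of 0.52 (0.46 to 0.58), and at 30 nt alone 981 and 1599 (0.81, 0.70 to 0.93). At 32 nt, 119 and 127 reads had a log2 ratio of 0.20, with an interval that held 0 (-0.17 to 0.58). SINE reads of 27 to 31 nt without an exact match in the assembled RNA numbered 2878 and 3561. Their log2 ratio was 0.42 (0.34 to 0.49), beside 0.76 (0.65 to 0.87) for those inside it. Any reads of the same RNA with a changed or added letter count among the former and were not separated. Other annotations gave a wide range of values at these lengths. The log2 ratio was 0.46 (0.42 to 0.49) for LINE, 0.32 (0.25 to 0.40) for LTR and 0.54 (0.51 to 0.58) for rRNA reads, 1.79 for snRNA and -3.24 for miRNA reads. It was -0.05 (-0.05 to -0.04) for tRNA reads, 0.17 for reads with no annotation and 0.10 for all reads together. For reads listed under RefSeq transcripts it was 0.01 (0.00 to 0.02), made up of -0.30 at 27 nt and 0.17 at 28 to 31 nt. At 27 nt these RefSeq reads numbered 77731 and 58650. Over both libraries 56781 of them were 1 sequence, the 27 nt read around B4A printed above. Its source and its part in the RefSeq values were not tested, so these values need not stand for mRNA fragments. Whether the gel cut of either library had a part in this was not tested.

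**Figure D4:**
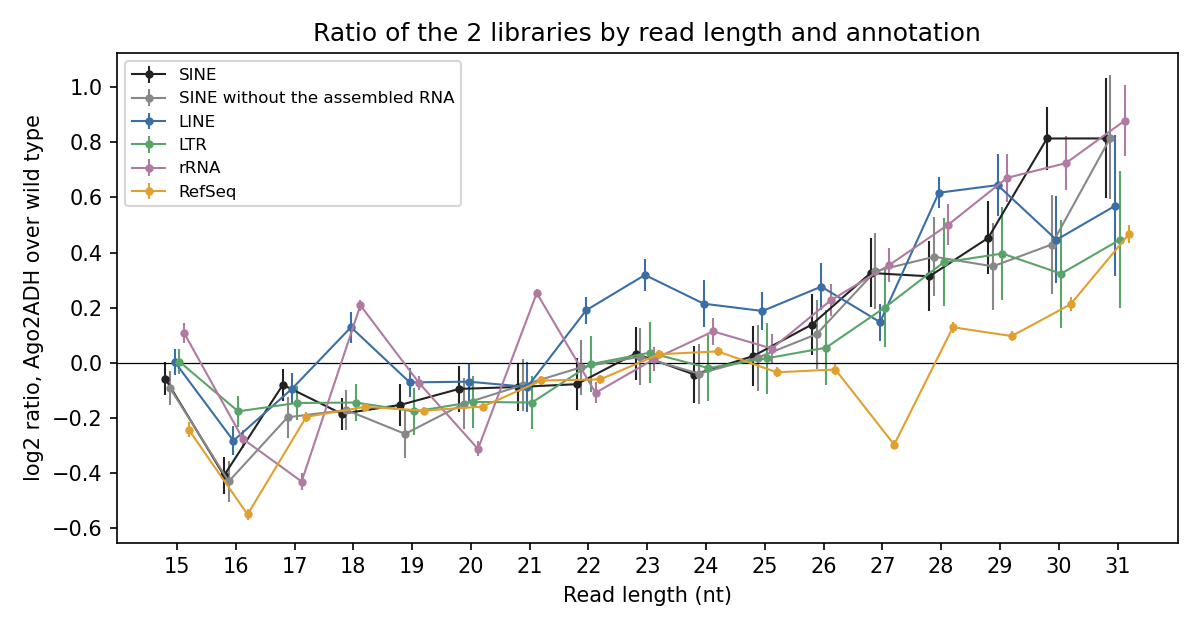
Log2 ratio of Ago2ADH over wild type, both scaled to all reads, by read length for SINE reads, SINE reads outside the assembled RNA, LINE, LTR, rRNA and RefSeq reads. Bars are exact conditional binomial 95% intervals. SINE reads lie below 0 at 16 nt (-0.41) and reach 0.81 at 30 nt, with the other repeat and rRNA lines also above 0 at 28 nt and longer.

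The bases of the SINE reads were examined because reads bound by Piwi proteins often start with U and those made by the pairing of Piwi products have A as the tenth base. U was the first base of 19.0% (18.7 to 19.4) of SINE reads in wild type and 19.5% (19.1 to 19.9) in Ago2ADH. Without the assembled RNA, whose 5′ end starts with G, it was 22.1% and 23.3%, and over distinct sequences of both libraries 24.01%. LTR reads had 26.8% and 27.1%, RefSeq reads 23.4% and 25.3%, and miRNA reads 65.7% and 74.0%. MIR reads had the highest share among SINE families (31.7% and 31.6%) and B2 the lowest (13.9% in both). At 27 to 31 nt and outside the assembled RNA, the first base was U in 24.1% and 24.7%, and the tenth base was A in 23.9% and 24.5%. Over all SINE reads the tenth base was A in 33.3% and 33.5%, without the assembled RNA in 25.7% and 24.4%, and over distinct sequences in 25.4%.

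Reads of opposite strands were then paired by the overlap of their 5′ ends, over both libraries and reads of 19 nt or longer. Piwi pairs overlap by 10 nt, and the strands of Dicer duplexes by 2 nt less than their length. The number of complementary pairs of distinct read starts declined steadily with the overlap, from 2547 at 8 nt to 750 at 10 nt, 420 at 11 nt, 64 at 20 nt and 14 at 23 nt, with no step up at 10 or 20 nt. LTR pairs also declined, from 2158 at 8 nt to 437 at 10 nt and 206 at 11 nt. Pairing used letters and not genome positions, so unrelated sequences can match at short overlaps. The counts therefore cannot show whether Piwi pairs are present or absent. Some antisense sequence was present: 6.44% of the distinct SINE sequences of 19 nt or longer shared 19 letters with the reverse complement of another one, beside 16.9% for LINE and 4.82% for LTR. By reads these were 8.76% of wild type and 10.5% of Ago2ADH SINE reads of 19 nt or longer, and 62.0% and 67.9% of LINE reads of 19 nt or longer.

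The number of genome matches separated the families. Reads with 1 match were 31.97% (31.5 to 32.4) of SINE reads in wild type and 34.4% (33.9 to 34.8) in Ago2ADH, and 48.6% of distinct SINE sequences. Reads with over 10000 matches were 13.8% and 14.7%, and 2.95% and 2.67% without the assembled RNA. The share with 1 match was 18.02% and 20.2% in B2, 34.3% and 36.8% in B4, 40.9% and 45.1% in B1, 47.5% and 50.3% in ID and 53.6% and 57.8% in MIR. LINE reads had 12.4% and 10.9% with 1 match, and LTR reads 21.6% and 21.5%.

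Among names, reads of 19 nt or longer with 1 match ranged from 9.11% in B2_Mm1a, 11.6% in B2_Mm1t and 21.3% in B1_Mm, which are recent names with near-identical copies, to 96.6% in MIR3. Between the libraries, reads with 1 match had a log2 ratio of 0.07 (0.03 to 0.10) and those with 11 to 100 matches -0.27 (-0.33 to -0.21). Neither met the size rule.

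**Figure D5:**
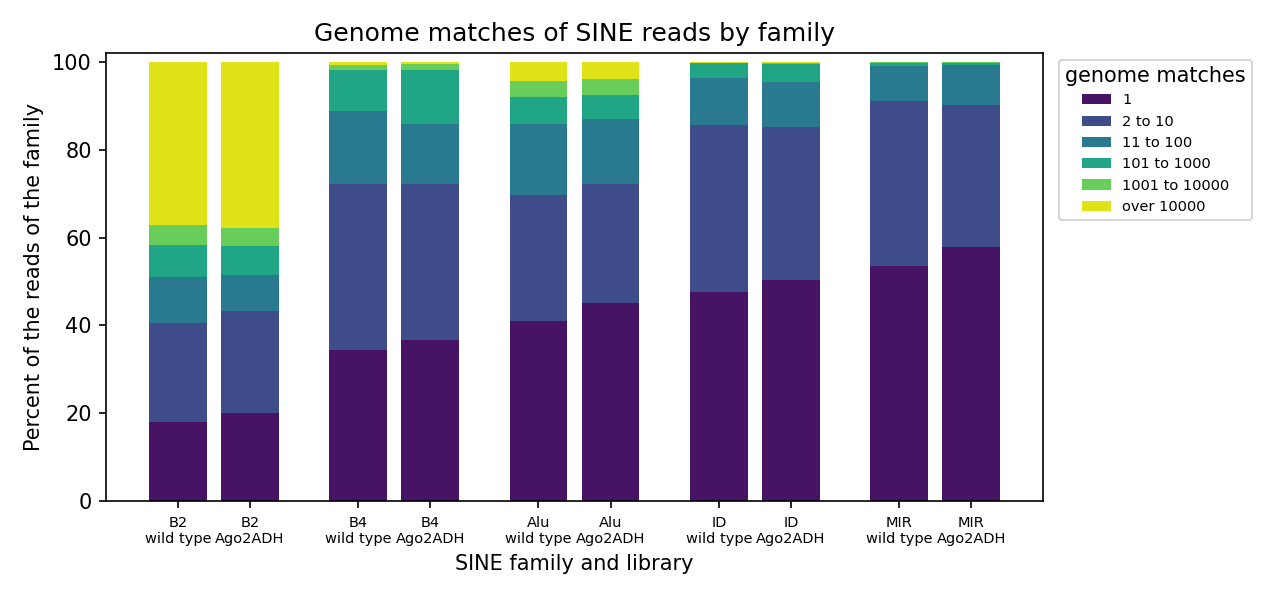
Percent of the reads of each SINE family by number of genome matches, in the wild type and the Ago2ADH library. The share with 1 match is smallest in B2 (18.02% and 20.2%) and largest in MIR (53.6% and 57.8%), and reads with over 10000 matches are found mostly in B2 (37.2% and 37.9%).

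SINE reads with 1 match mostly lay outside spliced transcripts. Of those of 19 nt or longer, 10475 and 10541 reads, 82.5% and 84.3% matched no GENCODE M21 transcript, which does not include introns. A further 16.2% and 14.6% lay in the sense direction of a transcript, and 1.03% and 0.873% only in the antisense direction. Besides Gm43846, transcripts with such reads included Slc4a1, the red cell anion exchanger, with 39 and 15 reads, Cldn1, a tight junction protein, with 23 and 26, and the nuclear RNA Neat1 with 12 and 18. Each of these 3 has under 100 reads, too few for the size rule. All Slc4a1 fragments in the table fell short of the rule too (645 and 392 reads, -0.61).

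Fragments of mRNAs for proteins that make, bind or silence SINE RNA gave little to compare. Of 25 RNA polymerase III genes, 2 had 100 or more reads and 0 were called, with 610 and 550 reads in all. Of 6 genes for SINE RNA binding proteins 3 had enough reads and 0 were called, and of 8 genes for repeat silencing by histone or DNA methylation 2 had enough reads and 0 were called. These are short mRNA fragments and not measurements of mRNA level.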

How the data were processed

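The authors deposited raw, unscaled read counts, 1 value for each distinct sequence in each library. Per the file headers, a sequence also has its genome match count, its class and a single name. For the aligner, build, repeat annotation and trimming, the sources used here give nothing. Groups follow the labels. Members and gene lists were chosen with earlier results of these data known. Names were chosen by a rule: every SINE family, the 12 SINE names and 12 SINE reads with most counts, the most abundant read of each family with 1000 or more reads, and names or reads past the size rule; others are said to be chosen after their values were seen. Counts were scaled to all reads with Python 3.11.15, pandas 2.3.3 and scipy 1.17.1. Sequences were counted after PCR without molecular identifiers, so intervals and floors cover counting error only. The assembly extended only where 20 or more reads supported the step. Overlaps of 14 and 18 letters gave the same RNA. Coordinates come from exact matches to GENCODE M21 and RefSeq tables (GRCm38). Tested on simulated data for 11015 names holding counting noise only, the size rule called 100% of 9, 6, 30 and 33 testable names at ratios of 0.25, 0.333, 3 and 4, and 0% of 3990 unchanged names. Alternatives were other scalings, length, genome-match, minimum and fold limits, distinct sequences, and sets without the most abundant sequences, the assembled RNA or contained reads. A few items are not reported here.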

Additional observations from a re-analysis of the deposited data

How the results depend on the processing

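No paired analysis was possible because there was 1 library per genotype, and for the same reason no replicate could be left out. No SINE name met the size rule under any alternative run. The log2 ratio of all SINE reads was 0.033 scaled to reads outside the miRNA class, -0.15 to miRNA reads and -0.0075 to repeat-track reads, 0.068 for reads of 19 to 30 nt, -0.059 for 20 to 24 nt, 0.068 for 1 genome match, -0.087 for 2 or more, 0.0058 for distinct sequences, -0.059 without the most abundant sequence of each name, -0.081 without the assembled RNA and -0.0032 without contained reads. In the same order of settings, leaving out those within the interval of the main value, B1 (Alu) gave -0.034, -0.21, -0.034, -0.058, 0.039, -0.21 and, for distinct sequences, -0.00098. B2 gave 0.11, -0.065, 0.20 (19 to 30 nt), 0.21 (1 match), 0.0069 (2 or more), -0.017 (without the most abundant) and -0.0197 (without the assembled RNA). B4 gave 0.019, -0.16, 0.063, -0.12, 0.0499, -0.10, -0.0029 (distinct), -0.091 (without the assembled RNA) and -0.013 (without contained reads). MIR gave -0.20 (miRNA scale), 0.036 (19 to 30 nt), 0.019 (1 match) and -0.23 (2 or more), and ID -0.41 (20 to 24 nt). Among the 12 names with most reads, 28 of 144 values had another sign than the main one, and the largest absolute log2 ratio was 0.41.

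Single SINE reads called higher and lower numbered 5 and 9 of 73 at a minimum of 50 reads (8.34% and 12.3% of all reads with as many counts), 20 and 52 of 391 at 10 (7.92% and 9.50%), 1 and 0 of 7 at 500 (6.61% and 8.23%), 11 and 3 of 25 at a 1.5-fold limit (18.6% and 20.4%) and 0 and 0 of 25 at a 3-fold limit (2.17% and 5.18%). They numbered 0 and 0 for 20 to 24 nt, a range that holds few of the 25 reads. For 1 genome match the counts could only be 0, since none of the 25 reads has 1 match. They numbered 2 and 0 for 19 to 30 nt, 2 and 2 scaled to miRNA reads, and 4 and 1 scaled to reads outside the miRNA class. Shares over all reads are not given for these settings, so these counts have no background beside them. First base U in wild type and Ago2ADH was 21.5% and 21.8% for 19 to 30 nt, 24.9% and 25.9% for 1 match, 23.5% and 24.2% for distinct sequences, 20.5% and 21.3% without the most abundant sequences, and 22.1% and 23.3% without the assembled RNA. Reads with 1 match were 51.3% and 52.5% for 19 to 30 nt, 45.7% and 49.0% for distinct sequences, 35.0% and 38.2% without the most abundant sequences, 40.7% and 45.1% without the assembled RNA, and 36.8% and 39.1% without contained reads. Reads of 27 to 31 nt were 10.7% of distinct sequences in wild type, 13.7% in Ago2ADH without the most abundant sequences, 9.18% and 12.95% without the assembled RNA, and 12.1% and 17.4% without contained reads. The sets without the assembled RNA and without contained reads were chosen after seeing the data. The cause of these changes was not tested. Depth limits single members most, since most were seen once, and repeat copies that share a read cannot be told apart.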
